A study of Mus musculus with 4 samples.

Results

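This account covers 55 genes of the mRNA decay machinery, taken by symbol from a fixed list: activators of decapping, the exosome and its partners, deadenylases with their adaptors, and the factors of nonsense-mediated decay. Of these, 54 had a row in the deposited table of 32681 genes, and Exosc6 was not analysed here. All 54 passed the filter on low counts that left 18110 genes for testing. The libraries came from primary neuron cultures of neocortex from wild-type CD-1 mouse embryos at embryonic day 13, grown in Neurobasal medium with B27. Of the cultures, 2 received a control hairpin (short hairpin RNA, shRNA) by transfection and 2 a hairpin against DcpS. The comparison asked which transcripts differ between these groups. Nothing else distinguishes the groups in the labels. The titles of both DcpS shRNA libraries name the same numbered hairpin. Depletion of DcpS and other effects of that hairpin therefore cannot be told apart here. The share of cells that took up the hairpin, the hairpin sequences and whether cultures came from separate litters are not stated in the labels, so p-values measure the spread between these cultures only.

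Most mRNAs are destroyed after their poly(A) tail has been shortened by the PAN2-PAN3 and CCR4-NOT deadenylases. The body is then degraded along either of a pair of routes. In one, decapping by DCP2 and its activators exposes the body to the exonuclease XRN1. In the other, the exosome digests from the tail end and leaves a short capped fragment, whose cap is hydrolysed by DcpS. Nonsense-mediated decay feeds transcripts with a premature stop codon into the same enzymes, through the helicase UPF1, the kinase SMG1, the endonuclease SMG6 and the exon junction complex deposited at splicing.

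The targeted gene was lower in both DcpS shRNA libraries. Dcps (GRCm38 chromosome 9, 35124408 to 35176061, minus strand) had 499.8 and 506.6 normalised reads (read counts divided by a size factor per library) in control 1 and 2, and 114.5 and 119.6 in DcpS shRNA 1 and 2. The mean was 23.3% of the control mean.

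The decay machinery itself differed little in RNA level between the groups. Of 54 members, 2 fell and 0 rose: Xrn1, the main 5′ to 3′ exonuclease of the cytoplasm, to 84.8% of its control mean, and Smg6, the endonuclease of nonsense-mediated decay, to 80.0%. That is 3.70% of the members, against 5.79% of all genes tested (3.65% lower and 2.14% higher; limma, two-sided, Benjamini-Hochberg adjusted p under 0.05). At an unadjusted p under 0.05 there were 11 members, 6 higher and 5 lower, against 18.7% of all genes. The median log2 fold change of the members was 0.04, with 36 above and 18 below 0. That of all genes tested was 0.00, with 9085 of 18110 above 0. These shares over all genes are also the background for the counts by complex below. The median size of the difference was 0.08 for members and 0.11 for all genes, beside a median standard error of 0.06 and 0.10. The members were more deeply covered than most genes: 51 of 54 had a mean above the median of all genes tested, 353 normalised reads, and the range ran from 263 for Magohb to 8844 for Ddx6.

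Confidence intervals set how large a difference the data leave room for. The 95% confidence interval of the fold change lay within 1.5-fold in either direction for 54 of 54 members, and within 1.2-fold for 39. The intervals that reached lowest were those of Tob2, from −0.56 to −0.14 on the log2 scale, and Smg6, from −0.51 to −0.15, and the one that reached highest was that of Magohb, from −0.11 to 0.38. With edgeR's quasi-likelihood test the called members were Xrn1, Smg6 and Tob2 (5.56%, against 5.77% of all genes), and with DESeq2 there were 0 (against 2.47% of all genes), with 6 at an unadjusted p under 0.05. Leaving out 1 library moved the count between 1 without control 1 (1.85%, against 4.45% of all genes in the same fit) and 7 without DcpS shRNA 2 (13%, against 7.39%).

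**Figure D1:**
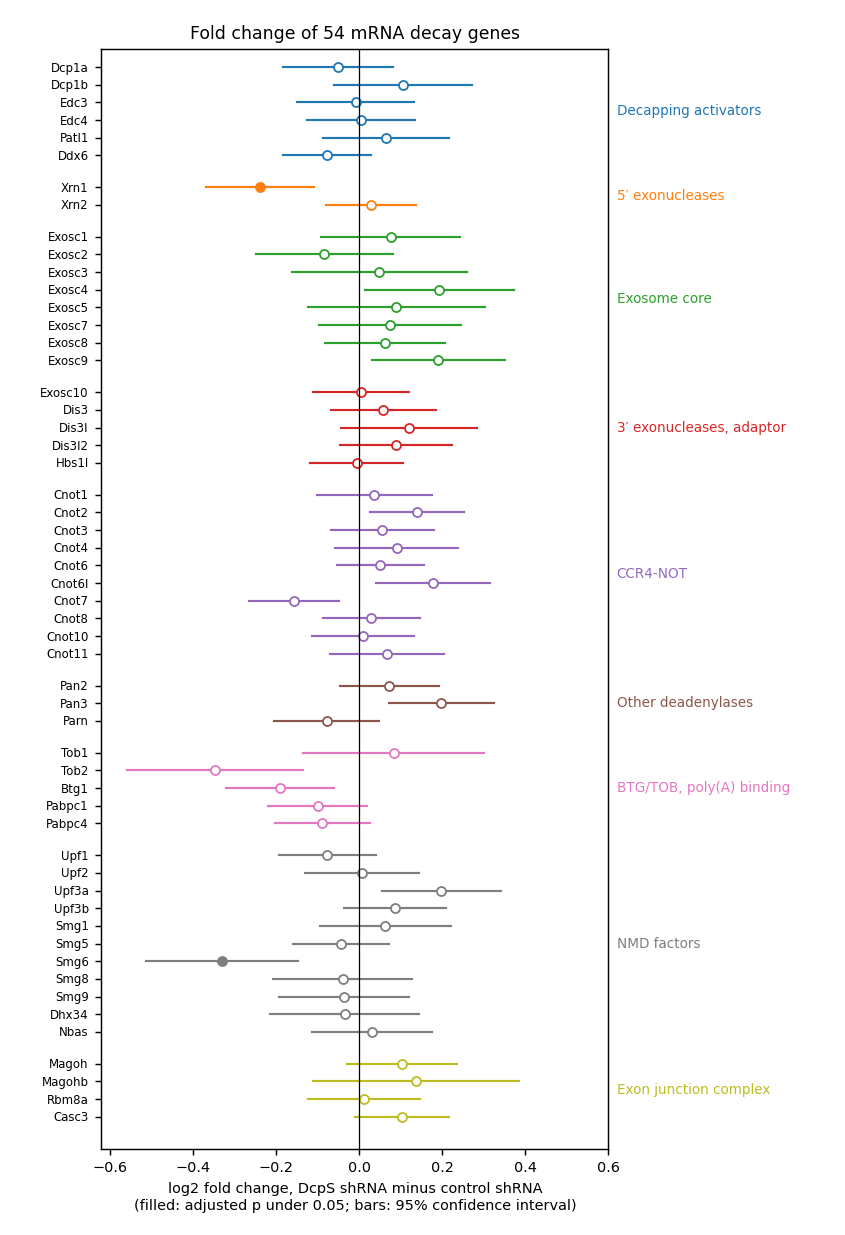
Log2 fold change (x axis, DcpS shRNA minus control shRNA) of the 54 mRNA decay genes, grouped by complex. Circles are estimates over 2 libraries per group, bars are 95% confidence intervals and filled circles mark an adjusted p under 0.05. Only Xrn1 and Smg6 are filled, and all bars lie between −0.56 (Tob2) and 0.38 (Magohb).

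**Figure D2:**
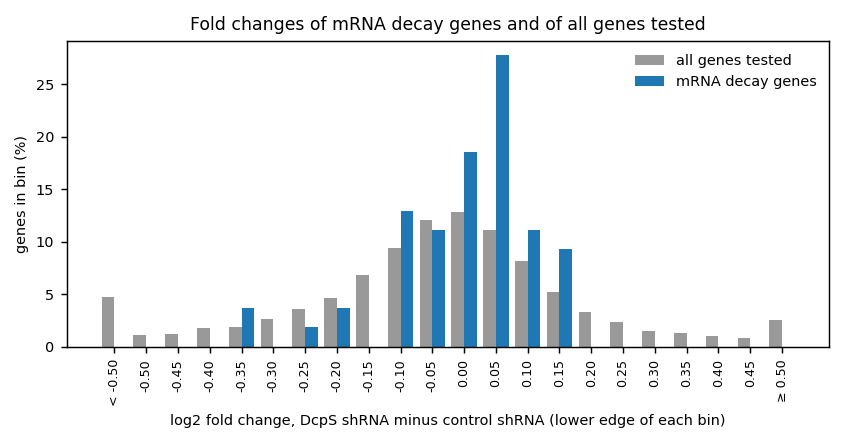
Percentage of genes (y axis) in bins of log2 fold change 0.05 wide (x axis) for all 18110 genes tested in grey and for the 54 mRNA decay genes in blue. No decay gene lies below −0.35 or at 0.20 and above, while all genes extend past 0.50 on both sides.

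Xrn1 (chromosome 9, 95954760 to 96057803, plus strand) had 1525 and 1544 normalised reads in the controls against 1365 and 1239 with DcpS shRNA. Both DcpS shRNA libraries were below both controls, which differed from each other by far less than the groups did. Group means were 1535 ± 13.7 and 1302 ± 88.6 (SD, n = 2 each), a log2 fold change of −0.24 (SE 0.06, limma, Benjamini-Hochberg adjusted p 0.0291). The fold change was negative in all 15 settings tried, the main one included, and lay between −0.31 and −0.17. Leaving out a library could not change that sign, because the groups do not overlap. The call was lost without control 1, control 2 or DcpS shRNA 2 and with DESeq2 (adjusted p 0.0819, 0.140, 0.108 and 0.160), and over the settings the adjusted p ran from 0.000282 to 0.336.

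Its nuclear relative Xrn2, which degrades RNA released at transcription termination, had 3239 and 3291 normalised reads in the controls against 3371 and 3291 with DcpS shRNA (log2 fold change 0.03, SE 0.05). The ratio of Xrn1 to Xrn2 reads is free of the scaling between libraries. It came to 0.471 and 0.469 in the controls against 0.405 and 0.377 with DcpS shRNA. The annotated coding sequences of the pair share no stretch of 50 bases, so reads of that length from coding exons would not fit both genes.

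Smg6 (chromosome 11, 74925823 to 75164448, plus strand) had 1469 and 1409 normalised reads in the controls against 1276 and 1028 with DcpS shRNA. DcpS shRNA 2 lay further below the controls than DcpS shRNA 1. A wider spread within the DcpS shRNA group was not particular to Smg6. Across genes, the chi-square per degree of freedom was 4.03 between the DcpS shRNA libraries and 2.15 between the controls. Group means of Smg6 were 1439 ± 42.3 and 1152 ± 175 (SD, n = 2 each), a log2 fold change of −0.33 (SE 0.08, limma, Benjamini-Hochberg adjusted p 0.0393). Its sign was negative in all 15 settings. Both DcpS shRNA libraries lie below both controls, so leaving out a library could not change it. Without DcpS shRNA 2 the fold change was −0.17 and the call ended (limma, Benjamini-Hochberg adjusted p 0.107), as it did with DESeq2 (0.0695), and over the settings the adjusted p ran from 6.31e-09 to 0.398.

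Smg6 is also one of 2 members whose annotated 3′ UTR holds either of a pair of overlapping 7-base words, ACGTGCA and CACGTGC. Both words are also in the 3′ UTR of Dcps, and they were picked out earlier from genes that were lower in these same libraries, so their share among lower genes is a description only. On the transcript strand, 33.2% of the 645 called lower genes with an annotated coding transcript held a word after the stop codon. It was 6.27% for the 367 called higher genes and 7.96% for all 13782 tested genes with such a transcript. Among members it was 2 of 54, Smg6 and Cnot7, a catalytic deadenylase of CCR4-NOT. The windows below show the Dcps match and the member matches, 5′ to 3′ on the transcript strand with 10 bases on each side and the words in capitals, because they show how far the resemblance to Dcps extends.
Dcps, chr9:35124746-35124773, minus strand: ctatcacctgCACGTGCAtttcacagct
Cnot7, chr8:40493452-40493479, minus strand: cagagtacagCACGTGCAttgtgcaaat
Smg6, chr11:75163019-75163045, plus strand: ggaagatgtcCACGTGCctgagctacc

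The Cnot7 window holds both words and shares an unbroken stretch of 11 bases with Dcps, 1 base before the capitals and 2 after. The Smg6 window holds the second word only, and the shared stretch is those 7 bases. The match lies 518 bases after the stop codon in Cnot7 and 79 bases after it in Smg6, and 127 bases after it in Dcps. All 4 annotated coding transcripts of Cnot7 carry it, but 1 of 2 of Smg6 and 1 of 2 of Dcps. Xrn1, with an annotated 3′ UTR as well, has neither word. Among the partner and target genes listed further below, Dcp2 (log2 fold change −0.08) and Gspt1 (0.02) hold both words. Tnrc6b (−0.20, SE 0.06) and Gadd45b (−0.19, SE 0.26, 24 to 36 reads per library) hold the second only, and Tnrc6c, which was called lower, has neither. Whether the words have a part in the Smg6 and Cnot7 values was not tested.

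**Figure D3:**
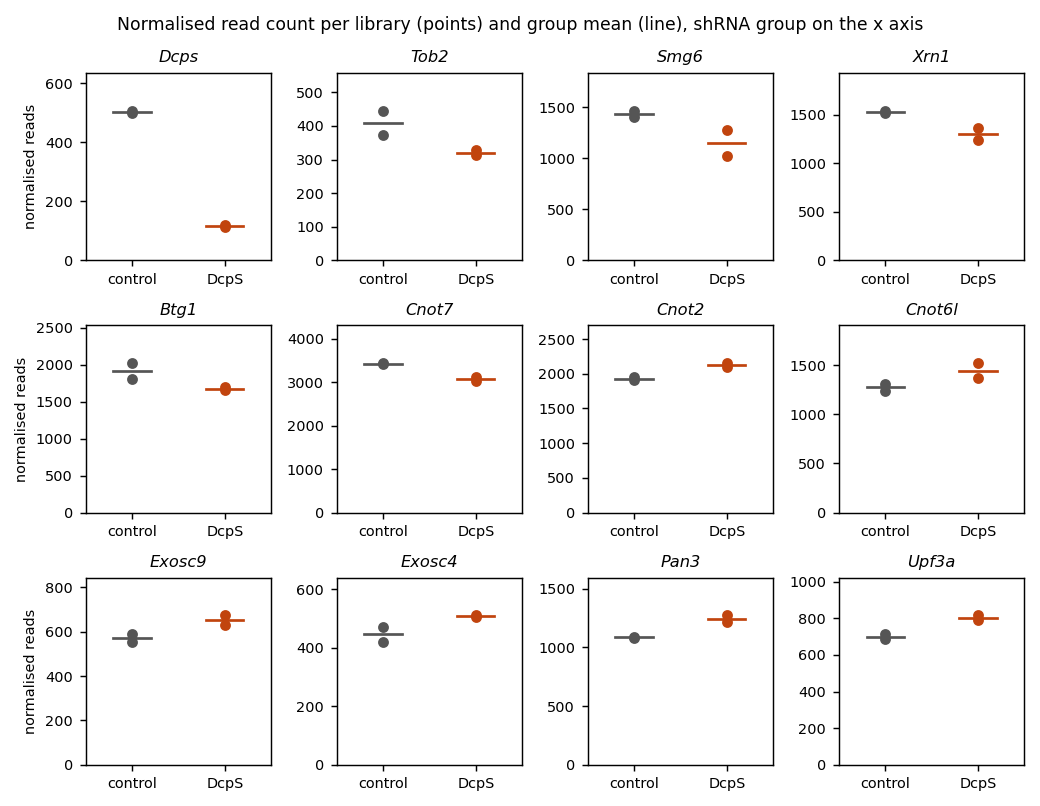
Normalised read count (y axis, from 0) of Dcps and the 11 members with an unadjusted p under 0.05, by shRNA group (x axis). Points are libraries and lines are group means over 2 libraries. The groups do not overlap in any panel, but the members shown were chosen by p-value in these same libraries. Over all genes tested, 48.4% do not overlap. Dcps drops to 23.3% of the control mean, while the members lie between 78.3% (Tob2) and 115% (Upf3a).

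The decapping activators assemble around DCP2 and stimulate it. Of 6, 0 passed the test, 0 had an unadjusted p under 0.05 (limma), and their median log2 fold change was 0.00. The cofactors Dcp1a and Dcp1b had fold changes of −0.05 (SE 0.06) and 0.11 (SE 0.08), the scaffolds Edc3 and Edc4 −0.01 (SE 0.07) and 0.00 (SE 0.06), and the bridging factor Patl1 0.07 (SE 0.07). The helicase Ddx6, which also represses translation, was the most abundant of all members by reads, with 8957 and 9198 normalised reads in the controls against 8769 and 8451 with DcpS shRNA. Its difference of −0.08 (SE 0.05, limma, Benjamini-Hochberg adjusted p 0.454) did not pass.

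The exosome core is a ring of subunits without catalytic activity, through which RNA is threaded to the nucleases. None of 8 measured subunits passed (limma), while 2 had an unadjusted p under 0.05, and 7 of 8 had a positive fold change, with a median of 0.08. Exosc9 had 589 and 554 normalised reads in the controls against 629.6 and 675 with DcpS shRNA (log2 fold change 0.19, SE 0.08). Exosc4 had 472 and 419 in the controls against 506 and 512 with DcpS shRNA (0.19, SE 0.08). In both the groups did not overlap, and the adjusted p was 0.176 and 0.229 (limma, Benjamini-Hochberg). The other subunits lay between −0.08 (Exosc2) and 0.09 (Exosc5).

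The catalytic subunits and relatives of the exosome lay between −0.01 and 0.12 on the log2 scale. Exosc10, the nuclear exosome nuclease, had 1822 and 1840 normalised reads in the controls against 1857 and 1817 with DcpS shRNA, a log2 fold change of 0.00 (SE 0.05). Hbs1l, a ribosome rescue factor whose short isoform links the exosome to the SKI helicase, had 2215 and 2236 against 2205 and 2227 (−0.01, SE 0.05). The nucleases Dis3 (0.06, SE 0.06), Dis3l (0.12, SE 0.08) and Dis3l2 (0.09, SE 0.06), the last of which acts without the exosome, were slightly above 0. Of these 5 genes 0 passed and 0 had an unadjusted p under 0.05 (limma).

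CCR4-NOT removes most of the poly(A) tail. Of the 10 subunits among the members 0 passed (limma) and 3 had an unadjusted p under 0.05, against 18.7% of all genes tested. Their median fold change was 0.05, and 9 were positive. The exception in sign was Cnot7 (chromosome 8, 40492540 to 40515847, minus strand), with 3412 and 3446 normalised reads in the controls against 3025 and 3129 with DcpS shRNA. Both DcpS shRNA libraries were below both controls, and the difference was −0.16 (SE 0.05, limma, Benjamini-Hochberg adjusted p 0.0953). Its paralogue Cnot8, an alternative nuclease in the same position of the complex, had 1533 and 1529 in the controls against 1544 and 1582 with DcpS shRNA (0.03, SE 0.06). The ratio of Cnot7 to Cnot8 reads was 2.23 and 2.25 in the controls against 1.96 and 1.98 with DcpS shRNA, groups that do not overlap. This ratio reuses the Cnot7 reads above. Ratios also did not overlap for Xrn1/Xrn2, Tob1/Tob2, Dcp1a/Dcp1b, Cnot6/Cnot6l and Upf3a/Upf3b. They overlapped for Dis3/Dis3l, Pabpc1/Pabpc4 and Magoh/Magohb. How often ratios of other gene pairs separate was not tested.

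The other catalytic pair of CCR4-NOT, Cnot6 and Cnot6l, had fold changes of 0.05 (SE 0.05) and 0.18 (SE 0.06). Cnot6l had 1242 and 1309 normalised reads in the controls against 1524 and 1366 with DcpS shRNA, with no overlap (limma, Benjamini-Hochberg adjusted p 0.133). Cnot2, a structural subunit, had 1913 and 1946 in the controls against 2095 and 2157 with DcpS shRNA (0.14, SE 0.05, adjusted p 0.161). The scaffold Cnot1 varied more between the DcpS shRNA libraries, 6256 and 5408, than between the group means, 5673 and 5832. Cnot3, Cnot10, Cnot11 and the ubiquitin ligase Cnot4 lay between 0.01 and 0.09. Cnot9, a further subunit listed with the partners, was at 0.15 (SE 0.05, limma, Benjamini-Hochberg adjusted p 0.147).

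PAN2-PAN3 starts deadenylation, with PAN2 as the nuclease and PAN3 as its RNA-binding adaptor. Pan3 (chromosome 5, 147430161 to 147548502, plus strand) had 1080.3 and 1091 normalised reads in the controls against 1275 and 1216 with DcpS shRNA. The controls were close together and both below the DcpS shRNA libraries, with a difference of 0.20 (SE 0.06, limma, Benjamini-Hochberg adjusted p 0.0662). Its partner Pan2 was at 0.07 (SE 0.06), and the separate deadenylase Parn at −0.08 (SE 0.06). Of the 3 genes 0 passed and 1 had an unadjusted p under 0.05 (limma).

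The BTG/TOB proteins recruit CCR4-NOT to mRNAs, and the cytoplasmic poly(A)-binding proteins coat the tail. Here 4 of 5 genes had a negative fold change, 0 passed (limma) and 2 had an unadjusted p under 0.05. Tob2 (chromosome 15, 81848272 to 81858796, minus strand) had 446 and 373 normalised reads in the controls against 313 and 329 with DcpS shRNA. Its mean was 78.3% of the control mean, the lowest share among the members, and its log2 fold change was −0.35 (SE 0.10, limma, Benjamini-Hochberg adjusted p 0.0526). It was negative in all 15 settings and passed in 6 of them. With both DcpS shRNA libraries below both controls, leaving out a library could not change that sign. Btg1 (chromosome 10, 96617006 to 96622809, plus strand), which slows proliferation, had 2028 and 1812 in the controls against 1666 and 1694 with DcpS shRNA (−0.19, SE 0.06, adjusted p 0.0854).

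Tob1, the paralogue of Tob2, did not follow it. Its libraries ranged from 425 to 527 normalised reads in the controls and from 467 to 538 with DcpS shRNA, so that the groups overlapped (0.08, SE 0.10). The ratio of Tob1 to Tob2 reads was 1.18 and 1.14 in the controls against 1.72 and 1.42 with DcpS shRNA. Pabpc1 had 8668 and 8106 normalised reads in the controls against 7496 and 8164 with DcpS shRNA (−0.10, SE 0.06), and Pabpc4 was at −0.09 (SE 0.05). Their ratio overlapped between the groups, from 3.43 to 3.53 in the controls and from 3.37 to 3.53 with DcpS shRNA.

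Among 11 factors of nonsense-mediated decay, Smg6 was the 1 that passed, 2 had an unadjusted p under 0.05 (limma), and the median was −0.03. Upf1, the helicase at the centre of the pathway, had 1867 and 1823 normalised reads in the controls against 1784 and 1716 with DcpS shRNA (−0.08, SE 0.06). Upf2, which activates it, was at 0.01 (SE 0.06). Upf3a had 712 and 689 in the controls against 818 and 789 with DcpS shRNA, with no overlap (0.20, SE 0.07, limma, Benjamini-Hochberg adjusted p 0.110). The X-linked paralogue Upf3b, the stronger activator, was at 0.09 (SE 0.06). The kinase Smg1 was spread more widely within the DcpS shRNA group, 4974 and 4147, than the groups differed (0.06, SE 0.07). Its regulators Smg8 and Smg9, the phosphatase adaptor Smg5, the helicase Dhx34 and Nbas lay between −0.04 and 0.03.

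All 4 exon junction genes had positive fold changes, 0 passed and 0 had an unadjusted p under 0.05 (limma). Casc3 had 2400.1 and 2330.0 normalised reads in the controls against 2502 and 2578 with DcpS shRNA (0.10, SE 0.05, limma, Benjamini-Hochberg adjusted p 0.319). The core pair Magoh (0.10, SE 0.06) and Rbm8a (0.01, SE 0.06) form a tight dimer in the complex. Magohb, which encodes a near copy of MAGOH, was the least covered member, with 228 and 274 in the controls against 256 and 295 with DcpS shRNA (0.14, SE 0.12). The coding sequences of Magoh and Magohb are identical at 81.0% of aligned bases and share no 50-base stretch. Rbm8a and its close copy Rbm8a2 are identical at 97.7%, and 146 of 476 of the 50-base stretches of Rbm8a recur in Rbm8a2, but only 48 reads in all were counted for Rbm8a2 against 7728 for Rbm8a. How reads that fit both were treated is not given in the sources used here.

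**Figure D4:**
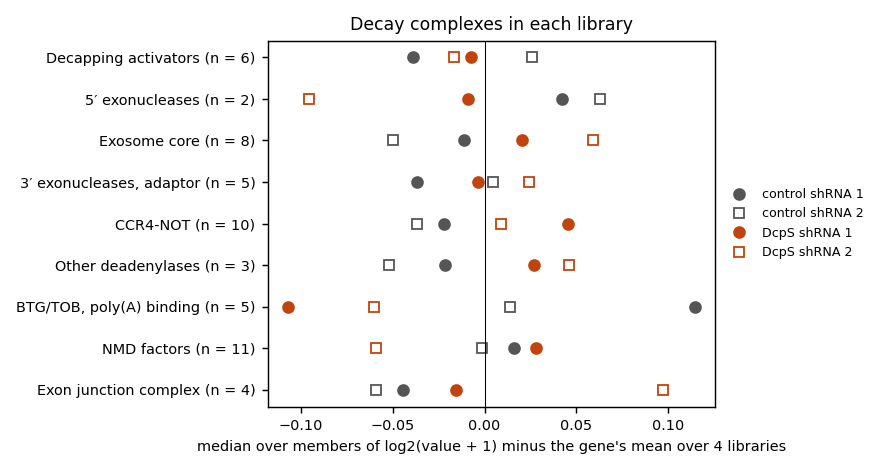
Median over the members of each complex of log2(normalised reads + 1) minus the gene's own mean over the 4 libraries (x axis), for each library. Grey marks control and orange DcpS shRNA, circles replicate 1 and squares replicate 2. All medians lie between −0.11 and 0.11. The controls are lower than the DcpS shRNA libraries for the exosome core, CCR4-NOT, the other deadenylases and the exon junction complex, and higher for the 5′ exonucleases and the BTG/TOB and poly(A)-binding genes. How often other sets of genes separate this way was not tested, and 48.4% of single genes do. The 5′ exonucleases are only Xrn1 (log2 fold change −0.24) and Xrn2 (0.03). Without DcpS shRNA 2, the median fold change moved from 0.10 to 0.03 for the exon junction complex. For the BTG/TOB and poly(A)-binding genes it moved from −0.10 to −0.16.

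Groups that do not overlap were common but the gaps small. The DcpS shRNA libraries were both above both controls for 22 members and both below for 11, together 61.1% of members. Over all genes tested, 48.4% did not overlap, 24.4% higher and 24.0% lower. The higher members included 6 of 8 exosome core subunits and 6 of 10 CCR4-NOT subunits, yet the highest fold change of any member was 0.20. The reads of all 54 members together took 0.470% of reads in each control and 0.474% and 0.463% in DcpS shRNA 1 and 2.

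Level per length was compared with reads per kilobase of the longest annotated coding transcript, and with the union of all annotated exons, which includes retained introns, as the other choice of length. By coding transcript, Pabpc1 was the highest of all members at 2878 normalised reads per kilobase, followed by Magoh at 1817 and Ddx6 at 1458. The same 3 genes led by union of exons, in the order Magoh (1633), Pabpc1 (1239.8) and Ddx6 (1101). Tob2 was the lowest by coding transcript at 87.9, and Exosc5 the lowest by union of exons at 43.9. Within complexes, Ddx6 was the highest and Dcp1b the lowest decapping activator, Parn the highest and Pan3 the lowest of the other deadenylases, and Magoh the highest and Magohb the lowest exon junction gene by either length. Exosc5 was the lowest exosome core gene by either length, but the highest was Exosc8 by coding transcript (580.1) and Exosc4 by union of exons (245).

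The choice of length also decided other orders. In CCR4-NOT, Cnot7 and Cnot6 were level by coding transcript (1091 and 1091 normalised reads per kilobase) and Cnot6 was ahead by union of exons (946 against 559). The lowest was Cnot6l by coding transcript (159) and Cnot4 by union (68.7). Among nonsense-mediated decay factors the highest was Smg5 by coding transcript (601) and Upf1 by union (389), and the lowest Dhx34 (109) and Nbas (84.4). Hbs1l (795) and Exosc10 (510.3) led the exosome nucleases and adaptor by coding transcript and by union, with Dis3l (156) and Dis3l2 (101) at the foot. Xrn2 stood above Xrn1 by either length, 960.4 against 138 by coding transcript and 828 against 76.3 by union.

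**Figure D5:**
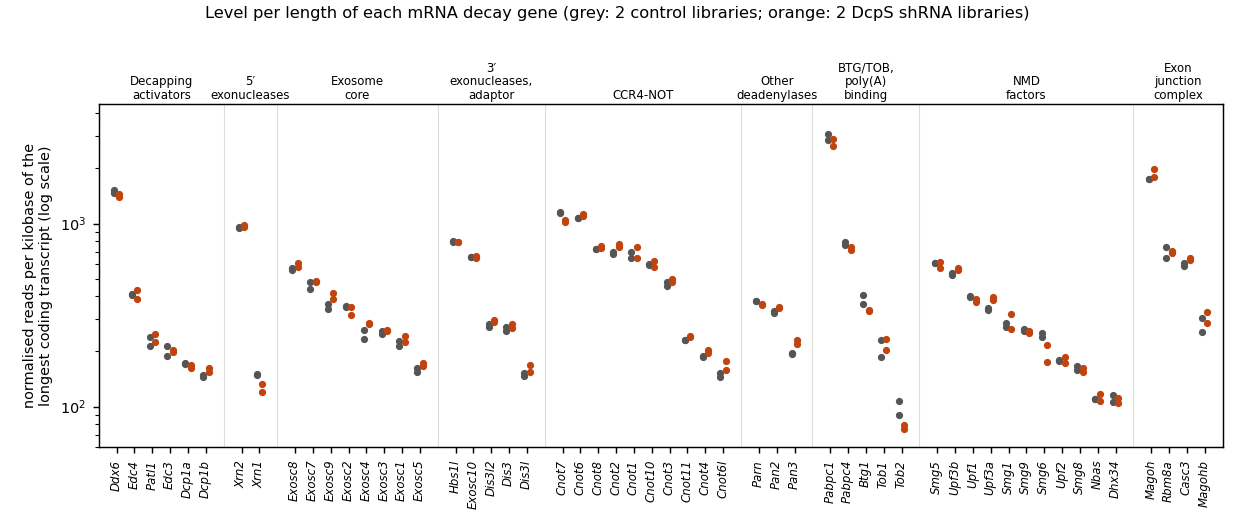
Normalised reads per kilobase of the longest annotated coding transcript (y axis, log scale) for each mRNA decay gene, ordered by level within its complex (x axis). Grey points are the 2 control libraries and orange points the 2 DcpS shRNA libraries. Levels span from 87.9 on average (Tob2) to 2878 (Pabpc1), far more than the gap between the groups for any gene.

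Partners of these complexes were followed as a separate list. Of 61 listed genes 60 were tested, 1 rose and 1 fell, 3.33% against 5.79% of all genes, with 9 at an unadjusted p under 0.05. Of 13 decapping partners and 15 exosome cofactors 0 passed in each, with 0 and 2 at an unadjusted p under 0.05 (limma). The decapping enzyme Dcp2 had 2058 and 2060 normalised reads in the controls against 1994 and 1908 with DcpS shRNA (−0.08, SE 0.05). Among 18 deadenylation partners, Btg2, a relative of Btg1 induced in neurogenic divisions, rose (977 and 1012 in the controls, 1324 and 1302 with DcpS shRNA, log2 fold change 0.40, SE 0.06). Tnrc6c, a microRNA silencing scaffold that binds CCR4-NOT, fell (3380 and 3221 in the controls, 2970 and 2568 with DcpS shRNA, −0.26, SE 0.06).

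Transcripts that nonsense-mediated decay is known to lower formed another list. Of 10, 1 rose and 0 fell, with 1 at an unadjusted p under 0.05, and their median was 0.01. The gene that rose was Atf4, a stress-response transcription factor, with 2595 and 2696 normalised reads in the controls against 3043 and 3019 with DcpS shRNA (0.20, SE 0.05, limma, Benjamini-Hochberg adjusted p 0.0356). Its call was lost without control 1 (0.320), without control 2 (0.121) and with DESeq2 (0.131), and that of Tnrc6c (0.0274) without control 1 (0.116), without DcpS shRNA 2 (0.0688) and with DESeq2 (0.0603). Their adjusted p ran from 0.00968 to 0.326 and from 4.57e-08 to 0.394 over the settings. Of 14 partners of nonsense-mediated decay and the exon junction 0 passed, with 2 at an unadjusted p under 0.05 (limma).

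The libraries held between 17754768 and 21793685 reads. All 12 neuron markers were detected, 1 higher and 1 lower with DcpS shRNA. Their summed levels were 5722 and 5637 CPM (reads scaled to a common library total) in the controls and 5475 and 5423 CPM with DcpS shRNA. Of 8 meningeal fibroblast markers 7 were lower, with summed levels of 614 and 670 CPM in the controls and 388 and 377 CPM with DcpS shRNA. Of 5 tested endothelial and mural markers 3 were lower (34.3 and 38.2 CPM against 21.9 and 20.3 CPM). Of 8 astrocyte and radial glia markers 3 were lower, with a median log2 fold change of −0.27. Their sum was 782 to 813 CPM in all libraries, much of it from Vim (mean 425 CPM). Microglia markers summed to 7.16 to 7.86 CPM. Of 5 tested oligodendrocyte lineage markers 1 was higher and 0 lower (21.9 to 24.3 CPM in all libraries). No listed marker was without reads in all libraries. Fewer cells of a type and less RNA per cell cannot be told apart in these bulk libraries, and the part of these markers in the Xrn1 and Smg6 values was not tested.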

How the data were processed

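RNA sequencing libraries of 4 cultures, 2 per group, were compared. The authors' deposited values are a signal: read counts per gene divided by a size factor per library. HISAT2 2.2.0, SAMtools 1.3.1, Picard, featureCounts, DESeq2 and GRCm38 are named in the submitters' processing notes without roles; the sources used here do not give the annotation or strandedness. Whole reads were recovered for 100% of values in each library (tolerance 0.001), and the libraries held 17754768 to 21793685 reads, so that 3 reads, the most a count of 0 allows, are 0.138 to 0.169 CPM (counting error only). Size-factor scaling would hide a shift of all transcripts together.

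Genes passing edgeR's filterByExpr on recovered reads (minimum count 10) were tested with limma 3.58.1 on log2(value + 1), which understates changes of low genes, modelling group alone, with robust empirical Bayes moderation along an intensity trend and Benjamini-Hochberg adjustment over all genes tested. An exact two-sided permutation test of 2 against 2 cannot go below a p of 0.333, so gene-wise p-values rest on the spread pooled across genes. edgeR 4.0.16 and DESeq2 1.42.0 on recovered reads, other scalings, pseudocounts and filters, a replicate block and leaving out each library were alternatives. The script was tested on simulated data. Gene models came from GENCODE M21 (GRCm38).

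The members, lists, words and settings were chosen with earlier results of these data known. Members at an adjusted p under 0.05 or an unadjusted p under 0.05, paralogue pairs, and the most and least abundant member per length of each complex were named, and partner genes where they passed. Dcp2 was named for its role, after its values were seen.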

Additional observations from a re-analysis of the deposited data

How the results depend on the processing

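The count of called members was 0 with DESeq2 (6 at an unadjusted p under 0.05), 0 in limma without the intensity trend and robust fitting (4 at an unadjusted p under 0.05), and 5 with the replicate block; leaving out 1 library gave 1 to 7. The count over all genes was 448, 0 (2538 at an unadjusted p under 0.05) and 1626 in the same order, and 747 to 1745 without 1 library. For the 70 partner and target genes it was 1, 0 (4 at an unadjusted p under 0.05) and 6, and 1 to 11 without 1 library. The block added Pan3, Tob2 and Btg1 to Xrn1 and Smg6. That made 9.26% of members, against 8.98% of all genes and 8.57% of the partner and target genes in the same fit. The sample titles number the libraries of each group as set 1 and set 2, without stating that same-numbered libraries are paired. Across 18110 genes the difference between the controls and that between the DcpS shRNA libraries correlated at 0.04. Without DcpS shRNA 2 the called members were Cnot6l, Cnot7, Pan3, Tob2, Btg1, Pabpc1 and Smg1, so Xrn1 and Smg6 were both lost there. A group left with 1 library is assumed to vary like the other. Xrn1 and Smg6 kept their sign in every setting. Leaving out a library could not change it, because both DcpS shRNA libraries lie below both controls. The other settings barely move the fold change. Uncalled members such as Dcp1a and Ddx6 also kept their sign in every setting. Smg1, whose DcpS shRNA libraries lie on either side of the controls, was at 0.19 without DcpS shRNA 2 and at −0.07 without DcpS shRNA 1. The median of all genes moved by less than 0.01 under each scaling. DESeq2 gave no adjusted p for 3160 genes, none of them members. With 2 libraries per group, small differences rest on few degrees of freedom.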
